A study of Mus musculus with 4 samples.

Results

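*Tcf21*, *Pdgfra*, *Npnt*, *Inmt*, *Ces1d*, *Gpc3*, *Wnt2* and *Fgf10* are genes by which alveolar fibroblasts and lipofibroblasts of the mouse lung are recognised. They were chosen by name, with earlier results of these data known, and all 8 were found among the 49315 genes of the count table. RNA came from ILC2s, innate lymphocytes without antigen receptors, that were sorted from mouse lungs on the Lineage-Thy1.2+ICOS+T1/ST2+ gate and kept in culture with IL-2 before extraction, in a study of fibrosis in Hermansky-Pudlak syndrome. PBS-WT and BLEO-WT are libraries from WT C57BL/6 mice given PBS or bleomycin, a drug that injures the lung and leads to scarring, and PBS-HPS1 and BLEO-HPS1 are libraries from *Hps1*-/- mice given the same. There was 1 library per group, made from 22405 cells (PBS-WT), 38873 cells (PBS-HPS1), 84166 cells (BLEO-WT) and 128647 cells (BLEO-HPS1), with total counts of 72513619, 77703133, 87638154 and 77428740 reads in that order. Any 4 values given without library names follow it too. The age of the mice, the number pooled per library, and the route, dose and day of bleomycin are not given for these libraries in the sources used here. The paper describes both intraperitoneal and intratracheal bleomycin, and does not state which of them applied to the sequenced cells. With 1 library per group no difference has a replicate check. The ratios compare libraries and not conditions, and their 95% intervals, which are exact Clopper-Pearson intervals of the reads, cover counting error only. *Hps1* itself had 2989 reads in PBS-WT and 1647 in PBS-HPS1, with 3795 in BLEO-WT against 1347 in BLEO-HPS1, and was thus lower in both knockout libraries.

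Alveolar fibroblasts lie in the walls of the air sacs, beside the epithelial cells that make surfactant, and supply those cells with growth factors. Lipofibroblasts are the lipid-storing form of these cells, and adventitial fibroblasts are a separate population in the sheath around larger vessels and airways, where ILC2s are also found. The 8 genes are not used as markers of ILC2s.

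The paper states that ILCs were enriched by negative selection before the sort, and it gives a high purity for the sorted cells. Reads were counted on each of the 8 genes in every library, although the libraries are labelled as ILC2s. Together they took 12875 reads in PBS-WT and 22565 in PBS-HPS1, with 16704 in BLEO-WT against 28596 in BLEO-HPS1. As a share of all reads this was 0.0178% (95% interval 0.0174 to 0.0181) in PBS-WT and 0.0290% (0.0287 to 0.0294) in PBS-HPS1, with 0.0191% (0.0188 to 0.0194) in BLEO-WT against 0.0369% (0.0365 to 0.0374) in BLEO-HPS1. Scaled to CPM, reads per megaread of a library size adjusted by TMM factors, the sum was 165, 228, 213 and 453. The sum was thus lowest in PBS-WT and highest in BLEO-HPS1. CPM values carry no correction for transcript length or GC content. The share of it that lay on *Inmt* was 46.4% (45.6 to 47.3) in PBS-WT and 41.1% (40.5 to 41.8) in PBS-HPS1, with 53.1% (52.3 to 53.8) in BLEO-WT against 61.5% (60.9 to 62.1) in BLEO-HPS1. Without *Inmt* the other 7 genes summed to 88.5, 134, 100 and 174 CPM. In bulk RNA, fewer cells of a type and less RNA per cell cannot be told apart.

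The label was set against marker genes of the cell types that the lung holds. All 10 ILC2 markers analysed had reads in every library, and their summed CPM was 897 in PBS-WT and 799 in PBS-HPS1, with 767 in BLEO-WT against 922 in BLEO-HPS1, and *Thy1* was the most abundant. The other 9 summed to 590, 593, 543 and 372 CPM, lowest in BLEO-HPS1. *Thy1*, at 306.5, 206, 224 and 551 CPM, thus alone placed the sum of the 10 highest in that library. Which cells the *Thy1* reads came from was not tested. The median log2 ratio of the 10 was -0.64 for BLEO-HPS1 against PBS-HPS1 and 0.07 after a loess correction for transcript GC content and length. That of all genes was 0.25 and 0.29. By TMM-scaled values 2 of the 10 were at least 2-fold higher and 3 lower, against 26.2% and 19.6% of all genes. For 7 markers of alveolar macrophages, led by *Chil3*, the sums were 5777, 5123, 4644 and 2459 CPM. For 12 markers of the alveolar epithelium, led by *Sftpc*, they were 1619, 1154, 1110 and 1007, and for 8 endothelial markers, led by *Pecam1*, they were 850, 799, 683 and 827. Of the 12, 7 were at least 2-fold lower in BLEO-HPS1 than in PBS-HPS1, against 19.6% of all genes. Only *Napsa* was at least 2-fold higher, 1 of 12 against 26.2%, and the median log2 ratio was -1.13. *Napsa* was at 381 CPM in BLEO-HPS1 and 83.8 in PBS-HPS1, while *Sftpc* was at 185 and 538.5. No gene of these lists was at 0 in any library, and *Car4* stands in both the macrophage and the endothelial list. The ILC2 and macrophage lists as first drawn held further markers, which were not analysed here. The macrophage and epithelial sums were lowest in BLEO-HPS1, where the sum of the 8 alveolar fibroblast genes was highest. What part other cells had in the levels of the 8 genes was not tested.

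Levels of different genes are compared here per kilobase (kb) of the longest annotated transcript. On that scale *Inmt* was the highest of the 8 genes in all 4 libraries, with a mean of 130 CPM per kb. *Gpc3* followed at 11.5, *Npnt* at 9.59, *Ces1d* at 7.89, *Tcf21* at 5.15 and *Pdgfra* at 3.83. The growth factor genes were lowest, *Wnt2* at 1.0 and *Fgf10* at 0.243 CPM per kb. The order varied among libraries, since *Npnt* was second to *Inmt* in PBS-WT and PBS-HPS1, while *Gpc3* was second in BLEO-HPS1 and, by 7.97 to 7.94, in BLEO-WT. By CPM, 6 of the 8 genes were highest in BLEO-HPS1, and *Npnt* and *Fgf10* were highest in PBS-HPS1. With total counts in place of TMM factors, *Pdgfra* was also highest in PBS-HPS1, which left 5 genes highest in BLEO-HPS1. Under both scalings the lowest library was PBS-WT for 5 genes, *Tcf21*, *Pdgfra*, *Inmt*, *Gpc3* and *Wnt2*.

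**Figure D1:**
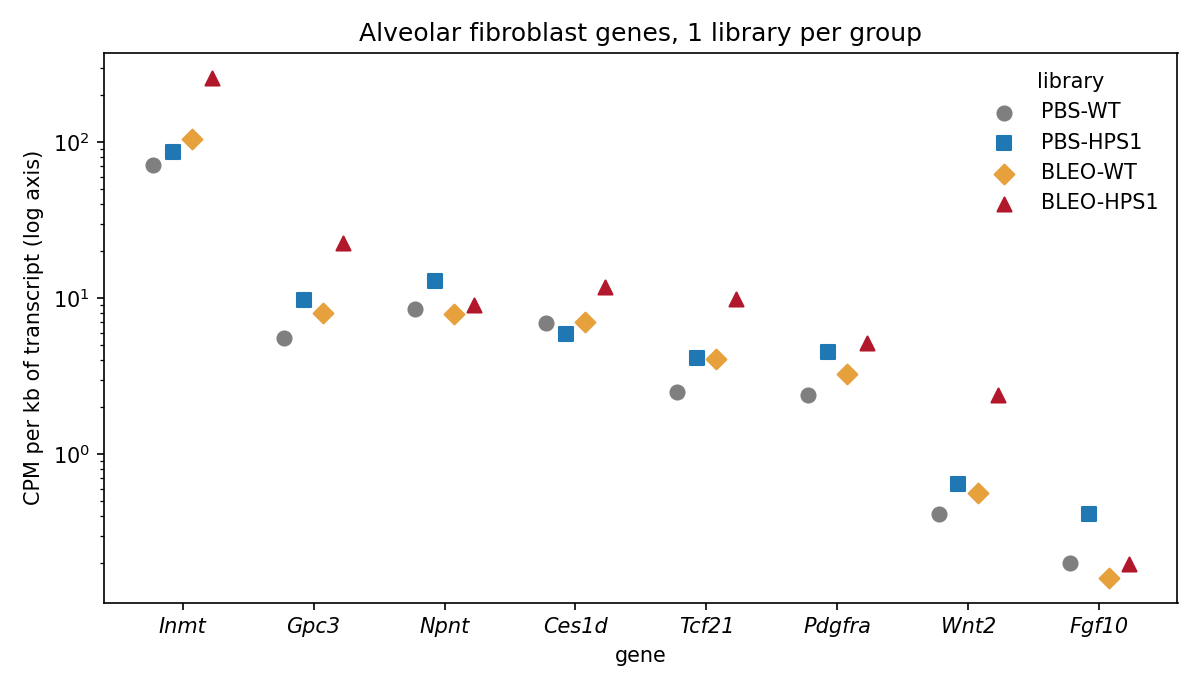
Levels of the 8 alveolar fibroblast genes, as CPM per kb of the longest transcript on a log axis, with 1 point for each library (grey circles PBS-WT, blue squares PBS-HPS1, orange diamonds BLEO-WT, red triangles BLEO-HPS1). Genes are ordered by their mean, from *Inmt* at 130 to *Fgf10* at 0.243 CPM per kb, and 6 of the 8 were highest in BLEO-HPS1.

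PBS-HPS1 against PBS-WT asks what the genotype goes with in mice without bleomycin. Of the 8 genes, 7 had a log2 ratio above 0, and the exception was *Ces1d*. *Fgf10* was at least 2-fold higher in PBS-HPS1, 1 of 8 genes, where 2.16% of the 14840 genes compared were, and 0 were at least 2-fold lower, against 3.11% of all genes. With total counts *Pdgfra* and *Gpc3* were also at least 2-fold higher, 3 of 8. The share of all genes with total counts is not given here, and their median log2 ratio then moved from -0.19 to 0.06. With the loess correction 0 of the 8 were at least 2-fold higher, where 1.98% of all genes with a corrected ratio were. The median log2 ratio of the 8 genes was 0.66, and that of all genes was -0.19. *Pdgfra* at 0.91 and *Gpc3* at 0.82 came next after *Fgf10*. *Fgf10* reached the level for comparison, set at 1 CPM or more in any library, only through PBS-HPS1, the library in which it was high. Without it 0 of 7 genes were at least 2-fold higher, with a median of 0.61.

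Differences between BLEO-WT and PBS-WT, the bleomycin comparison of WT mice, were small. None of the 8 genes was at least 2-fold higher (0 of 8, against 5.28% of all genes) or at least 2-fold lower (0 of 8, against 8.22%). The median log2 ratio was 0.43, beside 0.09 for all genes. It was largest for *Tcf21* at 0.70, and *Npnt* and *Fgf10* were below 0 at -0.11 and -0.30. The interval of *Fgf10* covered 0 (-0.86 to 0.24), and its ratio was 0.21 after the loess correction for transcript GC content and length.

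For BLEO-HPS1 against PBS-HPS1, the bleomycin comparison of *Hps1*-/- mice, the genes parted. *Inmt*, *Wnt2*, *Tcf21* and *Gpc3* were at least 2-fold higher, 4 of 8, where 26.2% of all genes were, and *Fgf10* was at least 2-fold lower, 1 of 8, where 19.6% of all genes were. As *Fgf10* was compared only because of PBS-HPS1, its high library, the count without it is also given, 4 of 7 higher and 0 lower, with a median log2 ratio of 1.22. *Ces1d* lay just under the threshold, at a log2 ratio of 1.0 that is 1.99-fold. With total counts only *Wnt2* was at least 2-fold higher, and *Npnt* was lower along with *Fgf10*. The shares of 26.2% and 19.6% are for TMM factors and cannot be set beside these counts. The median was 1.11 for the 8 genes and 0.25 for all genes, and with total counts 0.47 and -0.43. *Pdgfra* was at 0.18 and *Npnt* at -0.51. This comparison and the one of WT mice share no library, but no test of their difference can be made. The log2 ratio in *Hps1*-/- less that in WT mice was 1.46 for *Wnt2*, 1.01 for *Inmt*, 0.98 for *Ces1d*, 0.69 for *Gpc3* and 0.54 for *Tcf21*. It was -0.27 for *Pdgfra*, -0.39 for *Npnt* and -0.76 for *Fgf10*. After the loess correction it was 0.40 for *Pdgfra*, -0.11 for *Fgf10* and 0.33 for *Inmt*, and with total counts it was 0.16 for *Tcf21*. The median of these differences was 0.62, and that over all genes was 0.15.

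For BLEO-HPS1 against BLEO-WT, which sets the genotypes side by side after bleomycin, all 8 log2 ratios were above 0. *Wnt2* at 2.07, *Gpc3* at 1.51, *Inmt* at 1.30 and *Tcf21* at 1.26 were at least 2-fold higher, 4 of 8, where 6.72% of all genes were. None was at least 2-fold lower (0 of 8, against 10.3% of all genes). The median was 1.0 for the 8 genes and -0.04 for all genes. *Ces1d* at 0.74, *Pdgfra* at 0.65, *Fgf10* at 0.27 and *Npnt* at 0.19 were under the threshold, and the interval of *Fgf10* covered 0. The 4 comparisons share libraries, so their values are set side by side and not counted as separate evidence.

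*Tcf21* encodes a transcription factor of the basic helix-loop-helix class that is needed for lung mesenchyme to form. The gene (ENSMUSG00000045680, protein coding) spans 22817281 to 22820174 of chromosome 10 in GRCm38, on the minus strand. It had 351 reads in PBS-WT and 735 in PBS-HPS1, with 574 in BLEO-WT against 1110 in BLEO-HPS1, a CPM of 4.50, 7.42, 7.32 and 17.6. BLEO-HPS1 was thus high and PBS-WT low. PBS-HPS1 and BLEO-WT lay within counting error of each other by CPM, while with total counts their log2 ratios to PBS-WT were 0.96 and 0.43. Its log2 ratios were 1.24 for BLEO-HPS1 against PBS-HPS1 (1.11 to 1.38) and 1.26 for BLEO-HPS1 against BLEO-WT (1.12 to 1.41). After the loess correction these were 0.83 and 1.01, and with total counts 0.60 and 1.13. Factors of this class bind DNA as pairs with E proteins. *Tcf3*, an E protein gene, was at 90.1, 74.7, 112 and 161 CPM. *Tcf4*, at 65.3, 55.0, 46.9 and 34.2, and *Tcf12*, at 70.8, 70.4, 68.8 and 33.7, were lowest in BLEO-HPS1 by CPM. After the loess correction the log2 ratio of BLEO-HPS1 to PBS-HPS1 turned from -0.69 to 1.05 for *Tcf4* and from -1.06 to 0.12 for *Tcf12*, and for *Tcf3* it went from 1.11 to 0.39. Among 10 other factors of lung mesenchyme that were compared, led by *Foxf1*, 3 were at least 2-fold higher in BLEO-HPS1 relative to BLEO-WT and 0 lower, against 6.72% and 10.3% of all genes. The median log2 ratio of the 10 was 0.59, and 0.21 after the loess correction. *Gli2*, among the 3, and *Twist1* reached 1 CPM only in BLEO-HPS1, and of the other 8 genes 2 were higher, with a median log2 ratio of 0.53. Of these 2, *Meox2* reached 1 CPM only in the *Hps1*-/- libraries, where it was high. *Foxf1* itself, which endothelial cells also express, was at 53.6, 57.9, 64.4 and 61.0 CPM.

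*Pdgfra*, the receptor for PDGF-A that marks fibroblasts throughout the lung (ENSMUSG00000029231, plus strand of chromosome 5 from 75152292 to 75198215), has the longest transcript of the 8 genes, 6834 bases. Its reads were 1282 in PBS-WT and 3068 in PBS-HPS1, with 1753 in BLEO-WT against 2212 in BLEO-HPS1, and its CPM was 16.4, 31.0, 22.4 and 35.0. Both *Hps1*-/- libraries were thus above both WT libraries. The log2 ratio of PBS-HPS1 to PBS-WT was 0.91 (0.82 to 1.01) and that of BLEO-HPS1 to BLEO-WT was 0.65 (0.56 to 0.74). For BLEO-HPS1 against PBS-HPS1 it was 0.18 (0.10 to 0.26), which was 1.03 after the loess correction and -0.47 with total counts. *Pdgfrb*, the related receptor of pericytes and fibroblasts, was at 8.71, 11.8, 10.6 and 29.8 CPM. The reads on *Pdgfra* per read on *Pdgfrb* numbered 1.89 in PBS-WT and 2.63 in PBS-HPS1, with 2.11 in BLEO-WT against 1.18 in BLEO-HPS1. Library scaling does not enter this quotient, but transcript length and GC content can. The log2 ratio of BLEO-HPS1 to PBS-HPS1 was 0.18 for *Pdgfra* and 1.33 for *Pdgfrb*, and after the loess correction 1.03 and 1.14, so that most of the gap was gone. Of the ligands, *Pdgfa* was at 7.12, 6.08, 18.6 and 15.2 CPM, higher in both bleomycin libraries. *Pdgfb*, at 47.2, 34.7, 54.8 and 73.6, was highest in BLEO-HPS1 by CPM, but its log2 ratio to BLEO-WT turned from 0.43 to -0.08 with the loess correction. *Pdgfc* was at 18.8, 15.6, 29.0 and 12.7 and was highest in BLEO-WT. Of 6 PDGF ligand and receptor genes other than *Pdgfra*, 4 were at least 2-fold higher and 1 lower in BLEO-HPS1 than in PBS-HPS1, where 26.2% and 19.6% of all genes were. Of the 4, *Pdgfrl* reached 1 CPM only in BLEO-HPS1, and the median log2 ratio of the other 5 genes was 1.09. That of all 6 was 1.20 and with the loess correction 0.57. Against BLEO-WT the other 5 had 1 gene higher and 1 lower, where 6.72% and 10.3% of all genes were, and a median of -0.30.

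*Gpc3* encodes glypican 3, a proteoglycan on the cell surface that binds growth factors. It lies on the minus strand of chromosome X from 52272426 to 52613950 (ENSMUSG00000055653). With 955, 2136, 1385 and 3179 reads, it had a CPM of 12.3, 21.6, 17.7 and 50.3. BLEO-HPS1 was 2.33-fold above PBS-HPS1 (log2 ratio 1.22, 1.14 to 1.30) and 2.85-fold above BLEO-WT (1.51, 1.42 to 1.60). These ratios hardly moved with the loess correction, to 1.17 and 1.47. With total counts they were 0.58 and 1.38, so that the first was under the threshold. Of the other glypicans, *Gpc1* was at 21.2, 19.2, 42.7 and 81.1 CPM and was higher in both bleomycin libraries than in both PBS libraries. *Gpc4*, at 1.33, 1.64, 1.73 and 2.63 CPM, and *Gpc6*, at 0.488, 1.09, 0.765 and 3.40, were like *Gpc3* highest in BLEO-HPS1. In all, 3 of 5 other glypican genes were compared, and 2 of the 3 were at least 2-fold higher in BLEO-HPS1 than in PBS-HPS1, where 26.2% of all genes were.

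*Wnt2* encodes a Wnt ligand by which lung mesenchyme signals to the epithelium. The gene (ENSMUSG00000010797, minus strand of chromosome 6 from 17988940 to 18030585) had 73 reads in PBS-WT and 143 in PBS-HPS1, with 99 in BLEO-WT against 341 in BLEO-HPS1, a CPM of 0.936, 1.44, 1.26 and 5.40. BLEO-HPS1 was the highest. Among the other 3, PBS-HPS1 was above PBS-WT beyond counting error (log2 ratio 0.61, 0.21 to 1.05), and BLEO-WT lay within counting error of both. Its log2 ratios were 1.88 for BLEO-HPS1 against PBS-HPS1 (1.62 to 2.19) and 2.07 for BLEO-HPS1 against BLEO-WT (1.77 to 2.43), or 1.38 and 1.73 after the loess correction. These were the largest ratios of the 8 genes in both comparisons. Of 18 other Wnt ligand genes 8 were compared, and 5 of these were at least 2-fold higher in BLEO-HPS1 relative to BLEO-WT and 0 lower, against 6.72% and 10.3% of all genes. Of the 5, *Wnt6* and *Wnt10b* reached 1 CPM only in BLEO-HPS1, and of the other 6 genes 3 were higher, with a median log2 ratio of 1.05. Among these 3, *Wnt2b* reached 1 CPM only in the *Hps1*-/- libraries, where it was high. *Wnt11*, the most abundant, was at 15, 18.1, 18.8 and 23.3 CPM. *Wnt2b* was at 0.924, 2.04, 0.957 and 3.39 CPM and *Wnt5a* at 0.834, 2.00, 1.35 and 3.37, both higher in the *Hps1*-/- libraries. *Wnt9a* was at 0.885, 1.34, 1.89 and 4.65, with BLEO-WT above PBS-HPS1. *Axin2*, a common target of Wnt signals, did not follow *Wnt2*, at 20.0, 16.1, 16.4 and 15.8 CPM. Of 16 receptors and modulators of the pathway, 2 were at least 2-fold higher and 1 lower by the same comparison and shares, with a median log2 ratio of 0.02.

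*Fgf10*, the growth factor of lung mesenchyme that acts on epithelial cells through *Fgfr2*, was the lowest of the 8 genes (ENSMUSG00000021732, plus strand of chromosome 13 from 118669791 to 118792115). It had 64 reads in PBS-WT and 169 in PBS-HPS1, with 52 in BLEO-WT against 51 in BLEO-HPS1, a CPM of 0.821, 1.71, 0.663 and 0.807. PBS-HPS1 alone was high. PBS-WT lay within counting error of BLEO-WT, and so did BLEO-HPS1 of both. Its log2 ratios were 1.03 for PBS-HPS1 against PBS-WT (0.63 to 1.49) and -1.06 for BLEO-HPS1 against PBS-HPS1 (-1.56 to -0.62). The loess correction moved the latter to 0.10. *Fgf7*, which acts on the same receptor, was at 0.860, 1.73, 1.16 and 1.23 CPM. Its log2 ratio of BLEO-HPS1 to PBS-HPS1 was likewise negative, -0.48, and turned to 0.85 after the loess correction. *Fgfr2* was at 8.88, 6.69, 3.63 and 1.54 CPM, lowest in BLEO-HPS1, while *Fgfr1* was at 34.6, 36.5, 94.4 and 116. Of 21 other FGF ligand genes 6 were compared, and 0 were at least 2-fold higher and 1 lower in BLEO-HPS1 than in PBS-HPS1, where 26.2% and 19.6% of all genes were, with a median log2 ratio of -0.62 (0.06 after the loess correction). Among 10 receptors and targets of FGF signals, 3 were at least 2-fold higher and 2 lower in the same comparison, near those shares of all genes, and 1 of the 3, *Etv4*, reached 1 CPM only in BLEO-HPS1.

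*Npnt* encodes nephronectin, a protein of the basement membrane (ENSMUSG00000040998, minus strand of chromosome 3 from 132881745 to 132950291). Its reads numbered 3088 in PBS-WT and 5864 in PBS-HPS1, with 2874 in BLEO-WT against 2633 in BLEO-HPS1, a CPM of 39.6, 59.2, 36.7 and 41.7. As with *Fgf10*, PBS-HPS1 was the high library. Its log2 ratios were 0.58 for PBS-HPS1 against PBS-WT (0.52 to 0.64), -0.11 for BLEO-WT against PBS-WT (-0.19 to -0.04) and -0.51 for BLEO-HPS1 against PBS-HPS1 (-0.57 to -0.44). With the loess correction the last was -0.35. Alveolar epithelial cells also express *Npnt*. The integrin that binds nephronectin is made of the products of *Itga8* and *Itgb1*. *Itga8*, itself a gene of alveolar fibroblasts, was at 9.85, 16.7, 7.24 and 5.24 CPM, and was likewise highest in PBS-HPS1. *Itgb1*, which most cells express, was at 569, 488, 509 and 341 CPM.

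*Inmt* encodes indolethylamine N-methyltransferase, which methylates small amines such as tryptamine. It lies on the minus strand of chromosome 6 from 55170626 to 55175043 (ENSMUSG00000003477) and has the shortest transcript of the 8 genes, 1077 bases. It had 5976, 9283, 8866 and 17584 reads, a CPM of 76.7, 93.8, 113 and 278. BLEO-HPS1 was the highest library and PBS-WT the lowest under both scalings. PBS-HPS1 was below BLEO-WT by CPM and above it with total counts. BLEO-HPS1 was 2.97-fold above PBS-HPS1 (log2 ratio 1.57, 1.53 to 1.61) and 2.46-fold above BLEO-WT (1.30, 1.26 to 1.34). With the loess correction both ratios lay under the threshold, at 0.65 and 0.75. Of 4 other methyltransferases of small molecules, 1 was at least 2-fold higher in BLEO-HPS1 than in PBS-HPS1 and 0 lower, and 1 of 4 is near the 26.2% of all genes. That gene was *Nnmt*, whose product methylates nicotinamide, at 0.539, 0.576, 4.48 and 6.09 CPM. By CPM both *Nnmt* and *Inmt* were highest in BLEO-HPS1.

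*Ces1d* encodes a carboxylesterase that hydrolyses stored lipid (ENSMUSG00000056973, minus strand of chromosome 8 from 93166068 to 93197838). It had 1086 reads in PBS-WT and 1167 in PBS-HPS1, with 1101 in BLEO-WT against 1486 in BLEO-HPS1, a CPM of 13.9, 11.8, 14.0 and 23.5. By CPM it was the only one of the 8 genes that was lowest in PBS-HPS1, while with total counts it was lowest in BLEO-WT. By CPM, PBS-WT and BLEO-WT lay within counting error of each other. Its log2 ratios were -0.24 for PBS-HPS1 against PBS-WT (-0.36 to -0.12) and 0.74 for BLEO-HPS1 against BLEO-WT (0.63 to 0.86). With total counts the first was 0.00. *Ces1d* has close relatives in a cluster of genes, and reads shared among such copies make its counts less certain. The 7 other Ces1 genes in the table summed to 0.513, 0.717, 0.332 and 0.522 CPM, and none of them reached a CPM of 1. Among 8 genes of lipid handling, which macrophages express as well, 0 were at least 2-fold higher and 2 lower in BLEO-HPS1 than in BLEO-WT, against 6.72% and 10.3% of all genes, with a median log2 ratio of -0.61. The 2, *Lpl* at -1.10 and *Cd36* at -1.11, lay at -0.58 and -0.52 after the loess correction. *G0s2* went the other way, from -0.58 to -1.21, and so passed the threshold, and the median of the 8 genes was then -0.55. *Plin2*, which coats lipid droplets, was at 614, 545, 1126 and 917 CPM and *Lpl* at 957, 448, 378 and 176. *Pparg*, a factor of lipofibroblasts and alveolar macrophages, was at 72.4, 67.3, 36.8 and 23.5 CPM, lowest in BLEO-HPS1, where *Ces1d* was highest.

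Genes that overlap the 8 and were counted took few reads, and an antisense gene at *Tcf21* was not analysed here. The highest count of such a gene was 8, for an antisense gene at *Fgf10* in PBS-WT, where *Fgf10* had 64 reads. Whether the counting used strand is not given in the sources used here, so reads of such pairs cannot be told apart.

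Transcript length set the 8 genes apart in the same way as their ratios. In BLEO-HPS1 against PBS-HPS1, the 5 genes with transcripts under 2500 bases, *Inmt*, *Tcf21*, *Ces1d*, *Gpc3* and *Wnt2*, had log2 ratios from 1.0 to 1.88, and the 3 with transcripts of at least 4000 bases, *Fgf10*, *Npnt* and *Pdgfra*, had ratios from -1.06 to 0.18. These length classes were drawn after the values were seen. Over all compared genes with an annotated length, 45.2% of 5143 genes under 2500 bases were at least 2-fold higher in BLEO-HPS1 than in PBS-HPS1, against 10.6% of 5297 genes of at least 4000 bases, of which 31.8% were at least 2-fold lower. For BLEO-HPS1 against BLEO-WT, 11.3% of the shorter and 3.42% of the longer genes were at least 2-fold higher. Over the 11133 genes whose log2 CPM averaged more than 2, the rank correlation (Spearman's rho) of the BLEO-HPS1 to PBS-HPS1 ratio was -0.52 with transcript length and 0.60 with GC content, as a description across genes that are not independent replicates. With the loess correction for both, the genes at least 2-fold higher in BLEO-HPS1 than in PBS-HPS1 numbered 3, namely *Wnt2*, *Gpc3* and *Pdgfra*, where 18.2% of all genes with a corrected ratio were, and the 8 ratios ran from -0.35 for *Npnt* to 1.38 for *Wnt2*. For BLEO-HPS1 against BLEO-WT they numbered 4, *Wnt2*, *Gpc3*, *Pdgfra* and *Tcf21*, where 5.11% of all genes were. The median of the 8 genes was then 0.82 in the first comparison and 0.94 in the second.

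**Figure D2:**
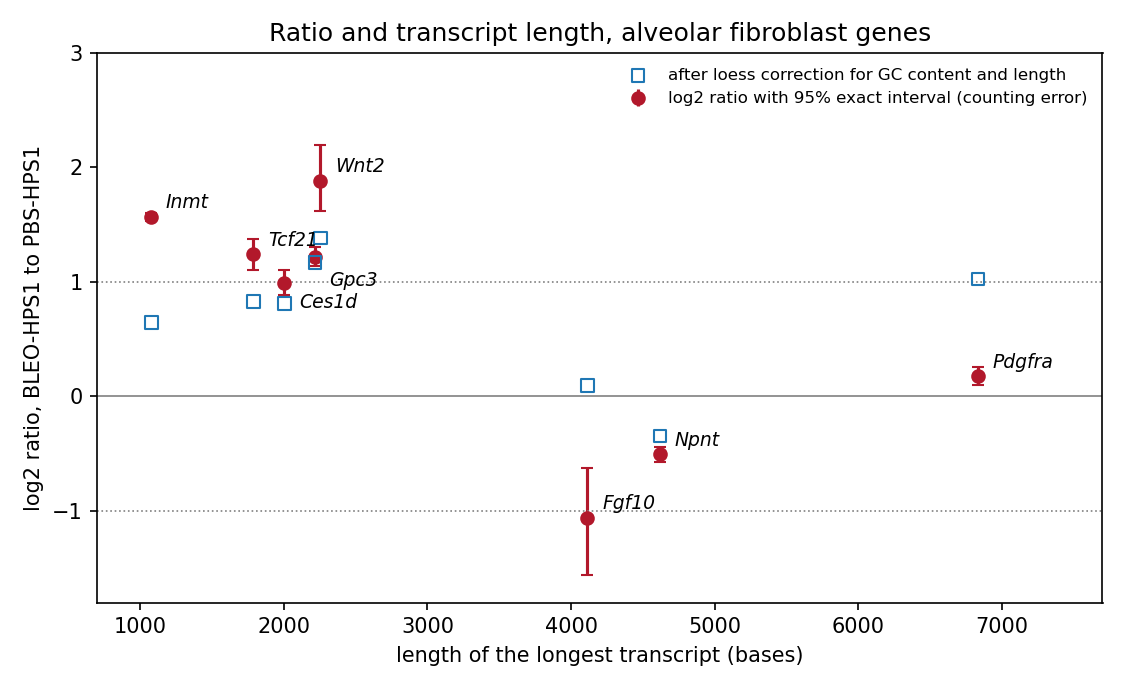
Log2 ratio of BLEO-HPS1 to PBS-HPS1 for each of the 8 genes against the length of its longest transcript in bases. Red circles are ratios with their 95% exact intervals, blue squares are ratios after the loess correction, and dotted lines mark 2-fold. The 5 genes under 2500 bases had ratios from 1.0 to 1.88 and the 3 longer ones from -1.06 to 0.18, and with the correction *Pdgfra* moved from 0.18 to 1.03.

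Other genes of alveolar fibroblasts had lower median ratios than the 8 in each of the 4 comparisons, a difference that was not tested. For 13 such genes, led by *Mfap4*, the summed CPM was 159 in PBS-WT and 207 in PBS-HPS1, with 133 in BLEO-WT against 263 in BLEO-HPS1. Between BLEO-HPS1 and PBS-HPS1, 3 were at least 2-fold higher and 2 lower, with a median log2 ratio of 0.00, and these counts are near the shares of all genes, 26.2% and 19.6%. Between BLEO-HPS1 and BLEO-WT 4 were higher and 0 lower, against 6.72% and 10.3% of all genes, with a median of 0.74. The median was -0.25 between BLEO-WT and PBS-WT, where that of the 8 was 0.43. *Mfap4*, an elastic fibre protein gene, was at 16.2, 29.4, 27.6 and 96.2 CPM. *Limch1* was at 41.0, 57.2, 34.4 and 32.8, highest in PBS-HPS1 like *Npnt* but lowest in BLEO-HPS1 by CPM, and *Scn7a* was at 50.4, 50.9, 14.0 and 10.9, lower in both bleomycin libraries.

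Adventitial and matrix genes had larger median ratios than the 8 genes in both comparisons of BLEO-HPS1, and these differences were not tested. Of 16 adventitial fibroblast genes, 14 were at least 2-fold higher in BLEO-HPS1 than in PBS-HPS1 and 0 lower, against 26.2% and 19.6% of all genes, with a median log2 ratio of 2.21, where that of the 8 alveolar genes was 1.11. Of the 14, *Ccl11* reached 1 CPM only in BLEO-HPS1, and 13 of the other 15 were higher. *Pi16*, a marker of adventitial fibroblasts, was at 52.8, 40.6, 48.8 and 192 CPM, and *Ly6a*, which lymphocytes and endothelium also express, at 66.9, 48.6, 107 and 256. Of 8 matrix genes that fibroblasts of all kinds express, led by *Col1a1*, 8 were at least 2-fold higher in the same comparison, against the same 26.2%, with a median of 3.13. Of these, *Lum* reached 1 CPM only in the bleomycin libraries, where it was high, and each of the other matrix genes was also higher. Between BLEO-HPS1 and BLEO-WT the medians were 1.71 for adventitial genes (1.44 without *Ccl11*) and 2.32 for matrix genes, and 1.0 for the alveolar genes. Of 14 smooth muscle and pericyte genes compared, 9 were at least 2-fold higher in BLEO-HPS1 relative to BLEO-WT and 0 lower, against 6.72% and 10.3% of all genes, with a median of 1.32. Among the 9, *Aspn* reached 1 CPM only in the *Hps1*-/- libraries, where it was high. Mesothelial genes, 3 of which were compared, had 0 past the threshold in either direction and a median of -0.08.

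Reads can also be set against each other within a library, where scaling plays no part. For each read on the 16 adventitial genes there were 0.593 reads on the 8 alveolar genes in PBS-WT and 0.819 in PBS-HPS1, with 0.570 in BLEO-WT against 0.424 in BLEO-HPS1. For each read on the 8 matrix genes there were 0.569, 0.509, 0.283 and 0.130. The alveolar genes were thus lowest relative to both lists in BLEO-HPS1, the library in which their own sum was highest. Without *Inmt*, the reads per matrix read were 0.305 in PBS-WT and 0.3 in PBS-HPS1, with 0.133 in BLEO-WT against 0.0500 in BLEO-HPS1. Whether length or GC content had a part in these quotients was not tested.

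**Figure D3:**
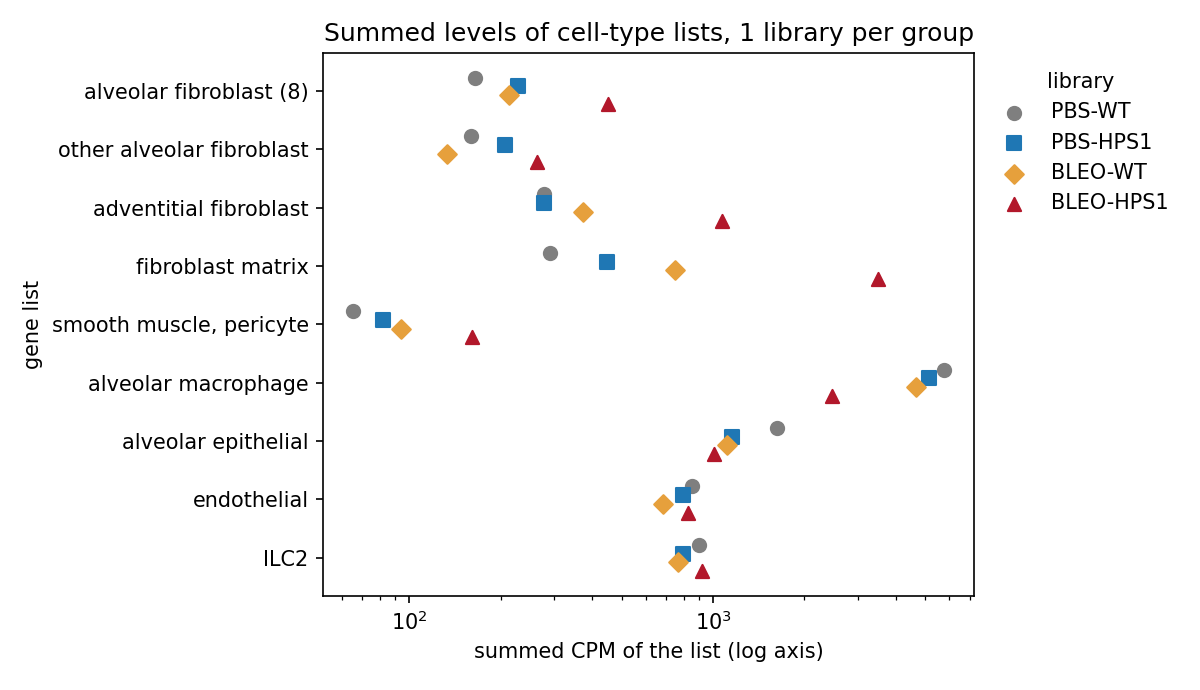
Summed CPM of gene lists on a log axis, with 1 point for each library (grey circles PBS-WT, blue squares PBS-HPS1, orange diamonds BLEO-WT, red triangles BLEO-HPS1). The 8 alveolar fibroblast genes ran from 165 CPM in PBS-WT to 453 in BLEO-HPS1 and the matrix genes from 290 to 3484, while the alveolar macrophage markers were lowest in BLEO-HPS1 at 2459.

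The genes whose pattern was most like the median of the 8 were sought among 10890 other genes with a mean CPM of at least 5, by the Euclidean distance of log2 CPM centred on each gene's mean over the 4 libraries. The nearest were *Nid1* (distance 0.0869), *Adamtsl1* (0.131), *Smtn* (0.132), *Krt8* (0.173), *Tcf7l1* (0.183) and *Col13a1* (0.189), where the median distance was 1.19. *Nid1*, which encodes the basement membrane protein nidogen 1, was at 18.7, 28.0, 27.2 and 55.8 CPM. *Col13a1*, another gene of alveolar fibroblasts, was at 4.32, 6.47, 5.55 and 10.6. Of the 8 genes themselves, *Tcf21* at 0.326, *Gpc3* at 0.398 and *Inmt* at 0.451 were closest to their median. *Npnt* at 1.18 and *Fgf10* at 1.52 were about as far from it as the median gene, or farther.

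Promoters are shown for *Inmt*, *Gpc3* and *Pdgfra*, as examples and not as a contrast. RefSeq promoters (GRCm38.p6) matched 7 of the 8 genes by symbol. The 250 bases before each start were searched on both strands for TATAAA, the core of the TATA box, for GGGCGG, the GC box, and for CANNTG, the E-box that basic helix-loop-helix factors bind, and the motifs found did not overlap in the sequences shown. Of all 32851 promoters, 12.4% held TATAAA, 32.7% held GGGCGG and 66.2% held CANNTG. Capitals mark the matches, and all sequences run 5′ to 3′ on the strand of the gene. That of *Inmt* (chr6:55175044-55175240, minus strand) held TATAAA at 2 places and CANNTG at 2, of which 1 lies in the part printed. The printed part ends 53 bases before the RefSeq start, where GENCODE places the start of the gene. That of *Gpc3* (chrX:52613975-52614224, minus strand) held GGGCGG at 3 places, each on the opposite strand, and 71.6% of its bases were G or C. That of *Pdgfra* (chr5:75152001-75152250, plus strand) held CANNTG at 1 place and neither of the others. The *Tcf21* promoter held none of the 3 motifs, and 1 of the *Npnt* promoters held GGGCGG at 3 places. A relation of motifs to ratios was not tested. A match says only that these letters are in the window.
Inmt: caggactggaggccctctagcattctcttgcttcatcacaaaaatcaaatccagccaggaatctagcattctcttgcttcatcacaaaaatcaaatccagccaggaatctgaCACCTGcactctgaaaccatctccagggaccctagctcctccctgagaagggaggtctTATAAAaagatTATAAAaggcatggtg
Gpc3: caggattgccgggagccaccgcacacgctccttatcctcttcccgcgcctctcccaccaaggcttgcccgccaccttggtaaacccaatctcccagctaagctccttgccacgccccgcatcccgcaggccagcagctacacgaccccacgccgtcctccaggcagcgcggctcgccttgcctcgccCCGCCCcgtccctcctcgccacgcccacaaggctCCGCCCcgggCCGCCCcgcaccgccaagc
Pdgfra: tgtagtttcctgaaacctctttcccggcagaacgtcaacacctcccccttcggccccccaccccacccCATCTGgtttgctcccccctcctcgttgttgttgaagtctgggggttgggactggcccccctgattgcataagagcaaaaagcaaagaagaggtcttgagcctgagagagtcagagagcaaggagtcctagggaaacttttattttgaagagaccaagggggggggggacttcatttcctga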

How the data were processed

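The authors deposited raw counts per Ensembl gene from libraries of total RNA made with a SMARTER mRNA kit, which copies cDNA by PCR. The aligner, the counting tool and the genome build are not given in the sources used here. Positions, lengths and GC contents came from GENCODE M21, in which 48970 of 49315 identifiers were found. Counts were scaled with TMM factors of edgeR 4.0.16 in R 4.3.3 (PBS-WT 1.08, PBS-HPS1 1.27, BLEO-WT 0.895, BLEO-HPS1 0.816). Log2 ratios used a prior count of 2, and comparisons used the 14840 genes that reached 1 CPM in any library. A count of 3 reads, the floor of detection, was worth 0.0303 to 0.0475 CPM. At least 2-fold was the threshold, with no test, and steps were tested on simulated data. Intervals were computed with SciPy 1.17.1. Alternatives were DESeq2 1.42.0 size factors, total counts, prior counts of 0.5 or 10, leaving out the filter, requiring 10 counts in each library, a loess correction (span 0.3) and a 4-fold threshold. The 8 genes and all lists were chosen with earlier results of these data known. Genes named were taken from the 8, the 3 with the highest mean CPM of each other list, partners of the 8 listed by name whatever their values, and the 6 nearest in pattern, and not all of these are named. Genes named because they reached 1 CPM in BLEO-HPS1 alone, and *Lum*, *Meox2*, *Aspn*, *G0s2* and *Car4*, were chosen after their values were seen.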

Additional observations from a re-analysis of the deposited data

Results flagged for a closer look

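For some lists and genes beside the 8, the bleomycin to PBS log2 ratio lay above 0 in mice of 1 genotype and below 0 in the other. With 1 library per group these differences were not tested. None of the 8 alveolar fibroblast genes was among them by TMM-scaled values with an interval that excluded 0. With total counts *Pdgfra*, at 0.18 in WT and -0.47 in *Hps1*-/- mice, and *Ces1d*, at -0.25 and 0.35, were opposite in direction, and with the loess correction *Ces1d* was at -0.01 and 0.81. For the 13 other alveolar fibroblast genes the median was -0.25 in WT and 0.00 in *Hps1*-/- mice, a difference of 0.26. The median of the differences of single genes was 0.28 for this list. FGF ligands had medians of 0.14 in WT and -0.62 in *Hps1*-/- mice (difference -0.76), receptors and modulators of the Wnt pathway 0.13 and -0.21 (-0.34), and mesothelial genes 0.06 and -0.33 (-0.39). The median of the differences of single genes was -0.19 for FGF ligands and -0.43 for mesothelial genes, and for the Wnt receptors and modulators it had the opposite sign, 0.18. Single genes were searched only among those that the naming rule covers, so other listed genes with opposite directions are not included. Among those searched whose interval excluded 0 in both genotypes, the difference was 2.36 for *Pi16*, from -0.11 in WT and 2.24 in *Hps1*-/- mice, and 1.88 for *Thy1*, from -0.46 and 1.42. *Pdgfc* was at 0.63 and -0.30 (difference -0.92), *Wls*, which Wnt ligands need for secretion, at 0.37 and -0.09 (-0.46), and the Wnt co-receptor gene *Lrp6* at 0.08 and -1.28 (-1.36). The macrophage gene *Mrc1* was at 0.12 and -1.23 (-1.34). The endothelial genes *Pecam1*, at -0.05 and 0.24, and *Cdh5*, at -0.15 and 0.13, differed by 0.28 each. With total counts the directions were opposite for 4 of these 12, *Pi16*, *Thy1*, *Pdgfc* and *Wls*, and both ratios were below 0 for the other 8. With the loess correction they were opposite for 7 of the 12. Both ratios were then below 0 for *Cdh5* and mesothelial genes and above 0 for *Lrp6*, *Wls* and FGF ligands, and *Mrc1* was at -0.07 in *Hps1*-/- mice. *Pi16*, *Thy1* and *Pdgfc* were the 3 with opposite directions under both alternatives.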

How the results depend on the processing

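Total counts in place of TMM factors moved the median log2 ratio of all genes from -0.19 to 0.06 for PBS-HPS1 against PBS-WT, from 0.09 to -0.18 for BLEO-WT against PBS-WT, from 0.25 to -0.43 for BLEO-HPS1 against PBS-HPS1 and from -0.04 to -0.18 for BLEO-HPS1 against BLEO-WT. Relative to the median of all genes, the median of the 8 genes was 0.86, 0.34, 0.86 and 1.04 in these comparisons, and with total counts 0.85, 0.35, 0.90 and 1.05. For BLEO-HPS1 against PBS-HPS1 it was 1.60 with no filter, which adds genes of few reads to the median of all genes, and 0.53 with the loess correction, which also took it from 0.34 to 0.17 for BLEO-WT against PBS-WT. For the bleomycin ratio in *Hps1*-/- less that in WT mice it was 0.47, with 0.87 under no filter and 0.19 with the loess correction. In PBS-HPS1 against PBS-WT, 1 gene was at least 2-fold higher, and 3 with total counts, 0 with a prior count of 10, 0 with the loess correction and 0 at 4-fold. That gene, *Fgf10*, had a log2 ratio of 0.95 with a prior count of 10 and 0.99 with the loess correction against 1.03, so it moved little and crossed the threshold. In BLEO-HPS1 against PBS-HPS1, 4 genes were higher and 1 lower, with total counts 1 and 2, and at 4-fold 0 and 0. The gene that was lower there was lost with a prior count of 10 (0), at -0.97 against -1.06, and with the loess correction (0), where the log2 ratio of *Fgf10* reversed to 0.10. In BLEO-HPS1 against BLEO-WT 4 genes were higher, and 1 at 4-fold. The cause of these shifts was not tested. The filters cannot change the ratio of a single gene. Of 200 values of single genes under the other 5 alternatives, 192 kept their sign, and for BLEO-HPS1 against BLEO-WT all 40 did. Those that did not were of *Ces1d*, *Fgf10* and *Pdgfra*, and in 4 of the 8 the sign turned with the loess correction. One of these was the difference of *Pdgfra* between genotypes, from -0.27 to 0.40. Depth limits *Fgf10* and *Wnt2*, which had between 51 and 341 reads.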
